A study of Mus musculus with 12 samples.

Results

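Gene expression was measured in cells taken from the white matter of untreated wild-type mice with magnetic beads against GLAST, the glutamate transporter that the gene Slc1a3 encodes. The group was chosen by its labels as the arrays of wild-type C57BL/6 mice given cuprizone for 0 weeks, which were 3 of the 12 arrays of the series. The other 9 arrays, not compared here, were of wild-type mice that ate 0.2% (w/w) cuprizone for 3 or 12 weeks and of mice GnT-IX-deficient by genotype that ate it for 12 weeks, 3 of each. Diets started at 8 to 12 weeks of age, and the age of each untreated mouse was not given in the sources used here. All groups shared the isolation: brain white matter was dissociated with papain, cells were held in a buffer with trehalose and blockers of glutamate receptors, Fc receptors were blocked, and anti-GLAST beads took the astrocytes. The 3 arrays are biological replicates that the design calls independent, and whether each held the cells of 1 mouse or of several was not given.

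Astrocytes are the glial cells that take up glutamate and potassium, couple to each other through connexins, store glycogen and supply lipids to their neighbours. In white matter they lie among oligodendrocytes, the cells that wrap axons in myelin, along with oligodendrocyte precursors, microglia, blood vessels and, along the ventricles, ependymal cells. GLAST is a surface protein of astrocytes and of the radial glia from which they derive.

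Each value is a log2 signal for a gene, averaged by the authors' RMA procedure over the gene's probes. Probes differ in how well they bind, so the rank of a gene on an array orders signals and not amounts of RNA. The 19505 named genes had medians of 5.46, 5.48 and 5.47 in replicates 1, 2 and 3, and upper quartiles of 6.97, 6.97 and 6.95. The 1399 genes of olfactory and vomeronasal receptors, which act in the nose, served to show the signal of genes that brain glia are not known to use. Their 95th percentile was 4.42, 4.37 and 4.44 in the 3 arrays, and it is called the receptor level below. Across genes the arrays correlated with r of 0.985 for replicates 1 and 2, 0.980 for 1 and 3 and 0.982 for 2 and 3. The median gene had an SD of 0.20 over the 3 arrays, and 41 genes (0.21%) had an SD above 1. With 3 arrays the precision is limited by their number, and with 1 group there was no test.

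Genes that define astrocytes stood near the top of every array, with the antigen of the isolation and the best known astrocyte protein lower than most of them. Of 24 measured genes of the astrocyte list, 22 lay above the upper quartile in all 3 arrays and 16 lay in the top 5%, where 22% and 3.97% of all genes did. The list averaged 9.81, 9.59 and 9.50 in replicates 1, 2 and 3, or 9.63 ± 0.16 (log2, SD, n = 3). All 24 lay above the receptor level in all 3 arrays, as did 63.7% of all genes. Slc1a3 was at 8.84 in replicate 1, 8.19 in replicate 2 and 8.01 in replicate 3, with a mean of 8.35 ± 0.44 (SD, n = 3). These values put it between percentiles 88.8 and 94.5 of the genes of an array, with replicate 1 the highest. Gfap, which encodes the intermediate filament used to stain astrocytes, was at 6.55, 6.21 and 5.90, between percentiles 57.3 and 68.1. It was the lowest of the 24 genes by mean signal, and S100b, a calcium-binding protein of glia, was next at 6.83, 6.89 and 7.15.

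**Figure D1:**
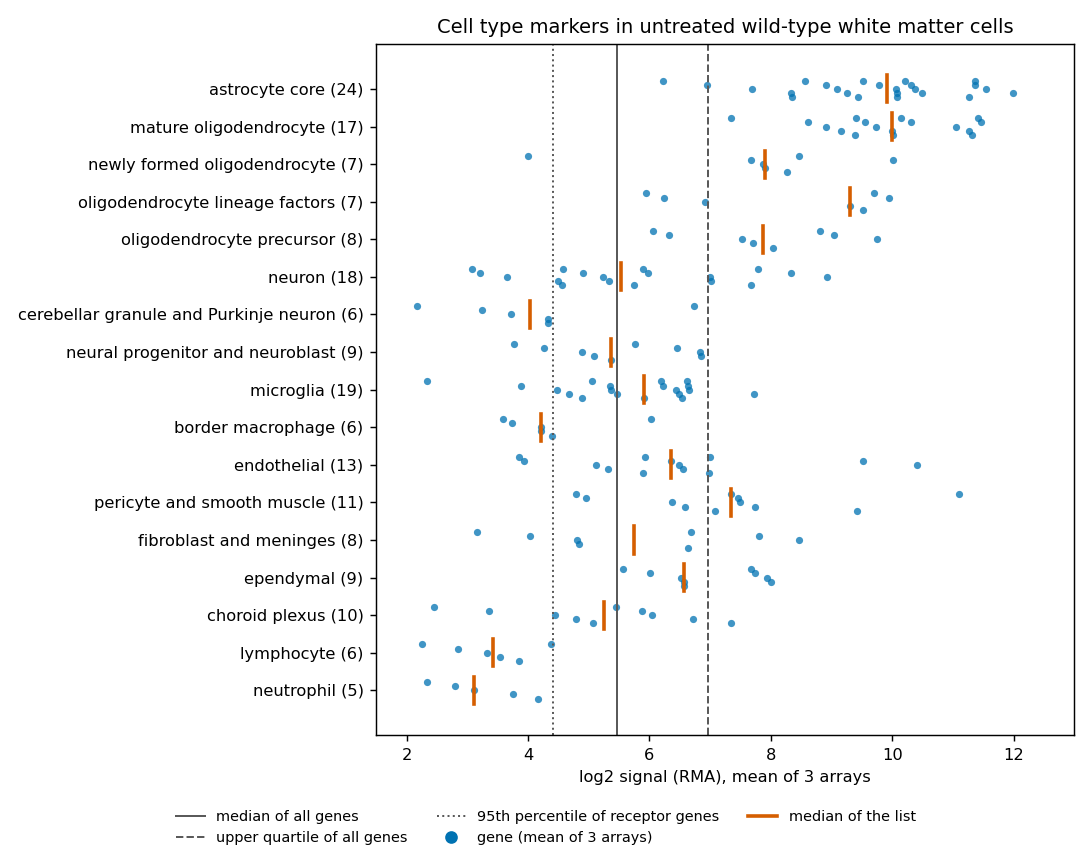
Each point is a marker gene at its mean log2 signal over the 3 arrays (horizontal axis), in rows by cell type with the number of genes measured; orange bars are list medians. The solid, dashed and dotted lines are the median of all genes, their upper quartile and the 95th percentile of the receptor genes, each averaged over the 3 arrays. Astrocyte and mature oligodendrocyte markers lie mostly right of the dashed line, and lymphocyte and neutrophil markers lie left of the dotted one.

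The promoters of Slc1a3 and Gfap are shown because, like the median window of the astrocyte list, they hold few CG dinucleotides, and that of Mgat5b because it has many. Mgat5b encodes GnT-IX, the enzyme that branches O-mannosyl glycans in the brain and that the study's other genotype lacks. Each window runs from 250 bases before the start of the RefSeq gene to 50 bases after it in GRCm38.p6, on the strand of the gene, and capitals mark CG.
Slc1a3, chr15:8710758-8711057, minus strand: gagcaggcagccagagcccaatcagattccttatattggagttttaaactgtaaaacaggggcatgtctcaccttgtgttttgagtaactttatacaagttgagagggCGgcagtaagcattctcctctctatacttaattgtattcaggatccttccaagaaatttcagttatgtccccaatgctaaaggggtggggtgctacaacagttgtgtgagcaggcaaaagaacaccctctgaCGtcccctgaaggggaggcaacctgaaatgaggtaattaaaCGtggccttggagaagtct
Gfap, chr11:102897151-102897450, minus strand: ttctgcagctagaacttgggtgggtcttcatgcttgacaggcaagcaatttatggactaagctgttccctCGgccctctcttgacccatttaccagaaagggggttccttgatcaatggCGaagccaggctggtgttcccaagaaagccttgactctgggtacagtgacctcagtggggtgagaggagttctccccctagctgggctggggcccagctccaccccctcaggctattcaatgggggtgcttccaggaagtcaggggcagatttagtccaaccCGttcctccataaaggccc
Mgat5b, chr11:116918613-116918912, plus strand: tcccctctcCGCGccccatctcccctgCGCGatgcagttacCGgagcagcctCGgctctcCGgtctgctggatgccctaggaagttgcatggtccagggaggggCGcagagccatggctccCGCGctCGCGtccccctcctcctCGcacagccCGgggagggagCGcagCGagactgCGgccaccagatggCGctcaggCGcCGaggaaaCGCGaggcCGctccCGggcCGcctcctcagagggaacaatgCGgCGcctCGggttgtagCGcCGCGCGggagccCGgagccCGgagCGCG

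The windows of Slc1a3 and Gfap held 3 CG each, and that of Mgat5b held 36. The Slc1a3 window also held the letters TATAAA and GGGCGG, each searched on both strands. Promoter windows matched 15691 of the 19505 genes by symbol, 19143 windows in all, and their composition differed with the signal of the gene. When the genes were split by mean signal into 4 groups of like size, the median window held 3 CG in the lowest group, then 11, 19 and 21 in the following ones. TATAAA was found in 25.6% of windows in the lowest group and in 11.2%, 7.91% and 6.82% in the next ones, against 12.3% of all windows. GGGCGG, the letters of a GC box, went the other way, from 17.5% through 46.7% and 59.4% to 62.4%, against 47.9% of all windows. Matches were counted anywhere in a window on either strand, so they need not be working promoter elements. How far these shares follow from the base composition of the windows was not tested. Windows of the 1399 receptor genes, 1215 in number, had a median of 1 CG, and 39.8% of them held TATAAA. Most receptor genes are part of the lowest group, which had 4242 windows. Their median signals of 2.76, 2.74 and 2.85 lay below the lower quartiles of all genes, 3.85, 3.87 and 3.92. The composition of that group without them was not computed. The windows of the astrocyte list had a median of 6.5 CG and those of the mature oligodendrocyte list 5, although both lists lay high on the arrays. For microglial genes the median was 6, for endothelial genes 2 and for neuronal genes 10.5, against 14 for all windows. Of the 30 highest genes, 20 had windows, 30 windows in all. These windows did not continue the order over the 4 groups, with a median of 12 CG and TATAAA in 20.0%. Genes are not replicates, so these values are a description with no test.

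**Figure D2:**
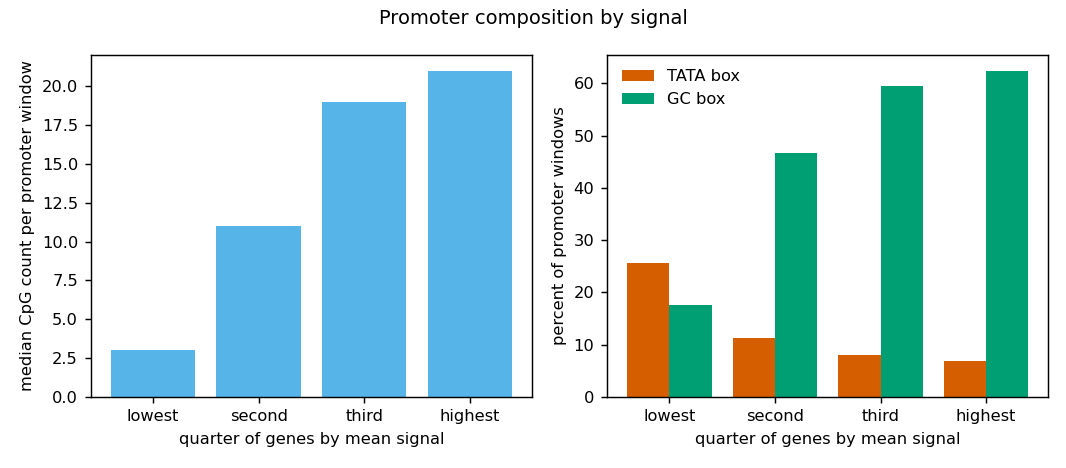
Genes were split into 4 groups of like size by mean log2 signal over the 3 arrays (horizontal axis). The left bars give the median number of CG dinucleotides per 300-base promoter window, from 3 to 21. The right bars give the percent of windows with the letters TATAAA (labelled TATA box) or GGGCGG (labelled GC box), which run in opposite directions. Letters were counted anywhere in the window on either strand.

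Among named genes, the highest signals belonged to genes of several functions. Of the 30 highest of all clusters, 9 are unnamed here and are left out. Fam107a, an actin-binding protein gene of astrocytes, led with 12.42, 12.50 and 12.27. Cst3, the secreted protease inhibitor cystatin C, followed at 12.33, 12.30 and 12.35, and Clu, the lipid-carrying chaperone clusterin, at 12.13, 12.07 and 12.11. These 3 genes varied little between arrays, with SDs of 0.12, 0.03 and 0.03. Next by mean were the transcription factor gene Tcf4 (12.07), the tetraspanin gene Cd81 (12.04), the brain proteoglycan gene Cspg5 (12.01), Ndrg2 (12.00), a gene typical of astrocytes, and the sodium pump subunit gene Atp1b2 (11.99). Sparcl1, which encodes the synapse-promoting protein hevin, averaged 11.96, the prohormone-processing gene Cpe 11.91, the LIM protein gene Csrp1 11.91, the actin gene Actb 11.68 and the ferritin gene Fth1 11.64. Transporters among the 30 highest were Slc38a3 (11.63), which moves glutamine out of astrocytes, Slc1a2 (11.55), the glutamate transporter GLT-1, and Slc2a1 (11.54), the glucose transporter GLUT1.

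The other genes among the 30 were of mixed cell types. The adhesion gene Ncam1 averaged 11.56, the membrane glycoprotein genes Gpm6a and Gpm6b 11.65 and 11.54, the lipid phosphatase gene Plpp3 11.45, Aldoc, the aldolase of astrocytes, 11.36, and the glial receptor gene Gpr37l1 11.36. Cmtm5 (11.56), Tmem47 (11.55), the respiratory chain gene Cox7c (11.50), the endosome gene Rab7 (11.48) and Pisd-ps3 (11.47) were also among them. Pisd-ps3 is a pseudogene whose reads on an array may come from its parent gene, so its value is uncertain. Genes known from myelin-forming cells were Cldn11 (11.45), the tight junction gene of myelin, Mal (11.42), a myelin proteolipid, and Sirt2 (11.42), a tubulin deacetylase of oligodendrocytes. Of the fixed lists, astrocyte markers held 4 places among the 30 and mature oligodendrocyte markers 2, and among the first 100 each held 5. The SD of these 30 genes ran from 0.02 to 0.24.

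**Figure D3:**
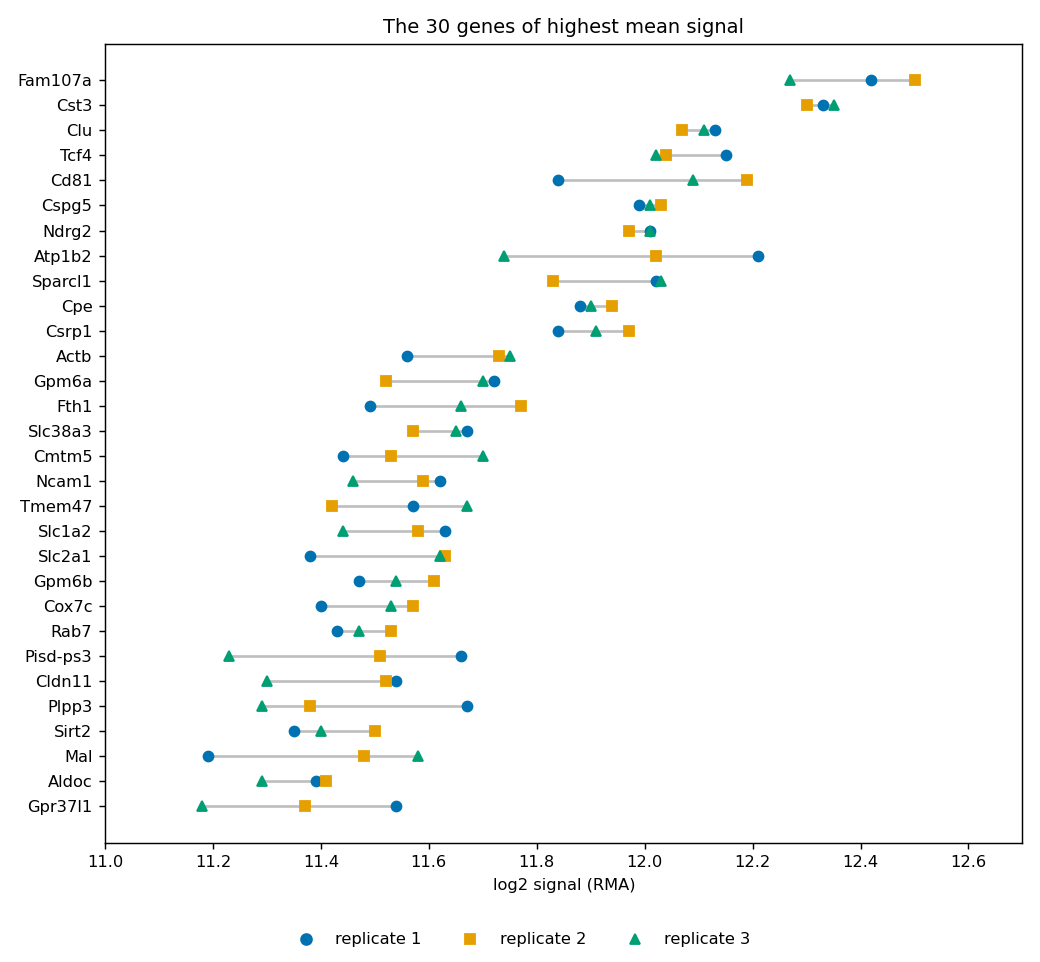
The 30 genes of highest mean signal are listed from top to bottom, with the log2 signal of each array on the horizontal axis, which starts at 11; grey lines join the lowest and highest array. Fam107a leads at 12.27 to 12.50; the ranges of neighbours in the order overlap except those of Cst3 and Clu and those of Csrp1 and Actb.

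Uptake and turnover of glutamate and GABA were represented by 7 measured genes, of which 6 lay above the upper quartile in all arrays. Among all genes 22% did, the share to set beside such counts for the lists that follow. Slc6a11, the GABA transporter GAT3, was at 10.82, 10.68 and 10.68, and Abat, the enzyme that breaks down GABA, at 9.94, 9.50 and 9.54. Got1, a glutamate-handling transaminase, averaged 8.11 ± 0.19 (SD, n = 3). Slc38a5, a second glutamine transporter, was the exception at 6.04, 5.78 and 6.22. All 7 measured genes of gap junctions and glial contacts lay above the upper quartile. The connexin gene of astrocytes Gja1 was at 10.33, 10.38 and 10.22 and its partner Gjb6 at 9.82, 9.63 and 9.09. Connexins of oligodendrocytes were as prominent on the arrays, with Gjc3 at 10.61, 10.76 and 10.55 and Gjb1 at 9.94, 9.67 and 9.57. Hepacam (9.43) and Mlc1 (9.08), which form a complex at astrocyte contacts, had SDs of 0.48 and 0.24, and Gjb2 averaged 7.44.

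Water, potassium and bicarbonate handling genes were likewise high, with 8 of 8 above the upper quartile in all arrays. Besides Atp1b2, the dystrobrevin gene Dtna, part of the anchor of endfoot channels, averaged 11.22 ± 0.05 (SD, n = 3). The bicarbonate cotransporter gene Slc4a4 was at 9.99, 9.92 and 10.26 and the potassium channel gene Kcnk1 at 10.30, 10.19 and 9.57. Kcnj10, the Kir4.1 channel that clears potassium, was at 8.77, 8.24 and 8.17, and Aqp4, the water channel of endfeet, at 8.55, 8.28 and 8.16. The chloride cotransporter gene Slc12a2 (7.74) and Kcnj16 (7.48), the Kir5.1 partner of Kir4.1, were the lowest of this list.

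Of 14 transcription factors of glia, 13 lay above the upper quartile in all arrays. The highest were 2 nuclear factor I genes, which drive astrocyte development, with Nfix at 11.48, 11.23 and 10.95 and Nfia at 11.20, 10.96 and 11.00, while Nfib of the same family averaged 9.70 ± 0.07 (SD, n = 3). Rfx4 averaged 10.02, Sox2 9.66 and Sox9, a factor found in nearly all adult astrocytes of the brain, 8.56 ± 0.33 (SD, n = 3). Of the targets of Notch and BMP signals, Id2 averaged 8.29, Id4 7.88, Hes5 7.74 and Id3 7.19. Hes1 was the one factor of the list that was not above the upper quartile, at 5.37, 5.76 and 5.29.

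Among 11 receptors, 10 lay above the upper quartile and 8 in the top 5% in all arrays, against 22% and 3.97% of all genes. Fgfr3, a growth factor receptor of astrocytes, was at 11.63, 11.21 and 10.94, the glutamate receptor gene Grm3 at 11.08, 11.00 and 10.91, and the sphingolipid receptor gene S1pr1 at 10.69, 10.53 and 10.35. Ntsr2, a neurotensin receptor, averaged 10.50, the endothelin receptor gene Ednrb 10.12, and the GABA-B subunit genes Gabbr1 and Gabbr2 9.98 and 9.70. The purinergic receptor gene P2ry1 was at 3.69, 3.68 and 4.01, below the receptor level in every array. Of 10 lipid genes 8 lay above the upper quartile. After Clu, Apoe, the main lipid carrier of the brain, was at 11.12, 11.07 and 11.11, and Lcat, which esterifies cholesterol on lipoproteins, at 11.02, 10.64 and 10.98. The fatty acid carrier gene Fabp7 averaged 8.82, the cholesterol exporter genes Abca1 and Abcg1 7.61 and 6.52, and the lipase gene Lpl 6.15.

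Secreted and matrix genes were more divided, with 12 of 16 above the upper quartile in all arrays. Sparc, an antagonist of hevin, averaged 10.58, the proteoglycan genes Bcan and Ncan 10.35 and 7.96, and the link protein gene Hapln1 8.65. The glypican genes, which act at synapses, differed widely: Gpc5 averaged 9.36, Gpc6 7.52 and Gpc4 3.90, with all 3 arrays below the receptor level for Gpc4. Thbs1, a synapse-promoting thrombospondin, averaged 4.13 and passed the receptor level in 1 of 3 arrays. Of 13 genes for glucose, glycogen and lactate, 10 lay above the upper quartile. Glycogen phosphorylases were high, Pygm at 9.66, 9.61 and 9.67 and Pygb at 9.57, 9.31 and 9.19, and so was the synthase gene Gys1 (8.70). For lactate, Ldha averaged 7.26, the exporter gene Slc16a1 7.20 and Ldhb 6.28. The branching enzyme gene Gbe1 averaged 4.90.

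More of the genes listed for grey matter astrocytes than of those listed for white matter astrocytes had high ranks. Above the upper quartile in all arrays lay 2 of 7 genes listed for fibrous astrocytes, the kind of white matter. That share is near the 22% of all genes. Of the list for protoplasmic astrocytes, the kind of grey matter, 7 of 7 lay above it. The 2 fibrous genes were Cryab, at 10.38, 10.61 and 10.43, and Aqp4. Cryab, a small heat shock protein, is also a gene of oligodendrocytes. Vim, an intermediate filament gene, was at 5.29, 6.23 and 5.68, the matrix gene Tnc at 7.35, 6.43 and 5.67, and Cd44, a hyaluronan receptor, at 4.56, 3.81 and 3.50. In the grey matter list, Mfge8, which bridges phagocytes to their targets, was at 11.01, 10.84 and 10.34 and the amino acid transporter gene Slc7a10 at 10.32, 10.05 and 9.86. Itih3 averaged 8.59, Chrdl1, a synapse-maturing factor of astrocytes, 8.30 and Btbd17 7.69. These counts do not show which kind of astrocyte was the more frequent.

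Some genes of both the telencephalic and the non-telencephalic list had high ranks, which does not show that cells of each region were present. The median percentile was 91.1 for the telencephalic list and 49.4 for the non-telencephalic list. In all arrays 3 of 4 telencephalic and 2 of 5 non-telencephalic genes lay above the upper quartile, against 22% of all genes. Of telencephalic genes, Lhx2 was at 10.46, 9.80 and 9.24, Emx2 at 7.76, 7.55 and 7.54 and Dmrta2 averaged 5.56. Of genes of astrocytes behind the telencephalon, the glycine transporter gene Slc6a9 was at 10.84, 10.45 and 10.25 and Agt, which encodes angiotensinogen, at 9.01, 8.88 and 9.35. The factors of that list were lower, with Irx3 at 4.98, 5.40 and 5.92, Irx2 at 4.44 and Irx5 at 4.22 on average. Irx2 and Irx5 each passed the receptor level in 1 of 3 arrays. In the list of Bergmann glia, the astrocytes of the cerebellar cortex, 0 of 7 genes lay above the upper quartile in all arrays. Gdf10 was at 6.90, 6.30 and 5.52 and Gria1 averaged 6.69. Of 13 reactive astrocyte genes, S1pr3, at 7.04, 7.53 and 7.94, was the 1 above the upper quartile in all arrays. Of the 13, 8 lay above the receptor level and 7 below the median in all arrays, shares near the 63.7% and 46.2% of all genes. Serpina3n was at 6.39, 6.12 and 5.81, Lcn2 at 3.03, 2.85 and 3.18 and Steap4 averaged 3.73.

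Genes of myelin and of oligodendrocytes had ranks as high as those of astrocytes, although the label of the cells, white matter astrocytes, does not name oligodendrocytes. Of 17 measured mature oligodendrocyte genes, 16 lay above the upper quartile and 14 in the top 5% in all 3 arrays. Among all genes these shares were 22% and 3.97%. The list averaged 9.92, 10.11 and 9.80 in replicates 1, 2 and 3, or 9.94 ± 0.16 (SD, n = 3). Mbp, myelin basic protein, was at 10.01, 10.32 and 9.66, Mobp, another myelin protein, at 10.35, 10.35 and 9.74, and Mog, a protein of the outer myelin surface, at 9.37, 9.64 and 9.15. Trf, the transferrin of oligodendrocytes, averaged 11.31, the prostaglandin synthase gene Ptgds 11.26, the lipocalin gene Apod 11.05 and Fa2h, which makes hydroxylated myelin lipids, 10.30. Ugt8a, the galactolipid enzyme, was the lowest at 6.94, 7.61 and 7.50. In bulk RNA, fewer cells of a type and less RNA per cell cannot be told apart, and whether these transcripts came from whole cells, from fragments of myelin or from astrocytes was not tested.

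Genes listed for other stages of the oligodendrocyte lineage also had high ranks, which does not show that cells of each stage were present. The transcription factors of the lineage Olig1, at 9.91, 9.72 and 10.23, Sox10, at 9.48, 9.36 and 9.71, Myrf, at 9.86, 9.95 and 9.31, and Olig2, at 9.85, 8.98 and 9.07, were 4 of 7 in the top 5% in all arrays. Among all genes 3.97% lay in the top 5% in all arrays. Nkx2-2 was the lowest of the 7 factors at 5.94 ± 0.23 (SD, n = 3). Bcas1, a gene of oligodendrocytes that are starting to make myelin, averaged 10.01 and Enpp6 7.90, and 6 of 7 genes of newly formed oligodendrocytes lay above the upper quartile. Rras2 was apart at 4.20, 3.00 and 4.80. Of 8 precursor genes 6 lay above the upper quartile, among them Cspg4, which encodes NG2 and is also a pericyte gene, at 9.85, 9.67 and 9.74. Vcan, a proteoglycan gene of precursors, was at 8.45, 9.09 and 9.58 and Lhfpl3 at 6.99, 7.77 and 8.36, while Matn4 averaged 6.06.

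Neuronal genes were spread over the whole range. Of 18, 4 lay above the upper quartile in all arrays, near the 22% of all genes. In all arrays 8 lay below the median and 12 above the receptor level, near the 46.2% and 63.7% of all genes. The list averaged 5.97, 5.66 and 5.61, or 5.74 ± 0.19 (SD, n = 3). Syp, a synaptic vesicle protein, was at 9.13, 9.22 and 8.44, the calcium sensor of release Syt1 at 8.97, 7.77 and 8.27, Tubb3, a tubulin of neurons, at 8.18, 8.11 and 7.09 and Snap25, a fusion protein, at 7.95, 7.69 and 7.36. The glutamate vesicle gene Slc17a7 was at 7.99 in replicate 1 against 6.65 and 6.37, and Slc17a6 lay below the receptor level in all arrays (3.08 on average). Nefm, Elavl4 and Slc17a6 were the 3 lowest. Of 6 genes of cerebellar neurons, Pcp2 (6.73) was the one above the receptor level in all arrays, and Gabra6 of granule cells averaged 2.18. Progenitor and neuroblast genes had 0 of 9 above the upper quartile in all arrays, with Dcx at 6.61, 6.59 and 7.34 and the division gene Mki67 at 5.47, 5.56 and 6.28.

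Microglial genes lay around the array median, and how many lay above a dim reference depended on which reference was used. Of 19, 1 lay above the upper quartile and 6 below the median in all arrays, against 22% and 46.2% of all genes. The receptor level was passed by 16 in all arrays, against 63.7% of all genes. Above the 99th percentile of the receptor genes lay 10, and above the 95th percentile of a list of genes restricted to other tissues lay 8. The shares of all genes above these other references were not computed. Of 26 measured genes of that list, 7 passed the receptor level in all arrays, among them the insulin gene Ins2 (5.93) and the keratin gene Krt10 (6.12). Against that list 6 of the 18 neuronal genes and 7 of the 13 endothelial genes lay above the reference. The list of microglial genes averaged 5.91, 5.39 and 5.59, or 5.63 ± 0.26 (SD, n = 3). Selplg, a selectin ligand, was the highest at 8.30, 7.41 and 7.47. C1qa, a complement subunit, was at 7.05, 6.35 and 6.58, P2ry12, a receptor of resting microglia, at 7.06, 5.90 and 6.97, Csf1r, the receptor microglia need to live, at 7.10, 6.39 and 6.36, and the protease gene Ctss at 7.02, 5.92 and 6.67. Tmem119 averaged 6.19, Cx3cr1 5.36, Tyrobp 5.06 and Trem2 4.89. Gpr34 and Aif1 lay below the receptor level in all arrays, Aif1 at 2.35, 2.34 and 2.32. Fc receptors were blocked during the isolation to keep out such cells, and no unblocked sample was analysed here. Of 6 genes of macrophages at the borders of the brain, Pf4 (6.02) was the one above the receptor level in all arrays, while Mrc1 and Cd163 lay below it in every array. Lymphocyte and neutrophil genes had 0 of 6 and 0 of 5 above the receptor level in all arrays.

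Vascular genes covered a wide range of ranks. Endothelial genes averaged 6.41 ± 0.08 (SD, n = 3). In all arrays 3 of 13 lay above the upper quartile, near the 22% of all genes, and 11 above the receptor level, against 63.7%. Slco1c1, the thyroxine transporter, stood out at 10.49, 10.47 and 10.27, as did Mfsd2a, a lipid transporter of the blood-brain barrier, at 9.98, 9.79 and 8.79. Slco1c1 is known in astrocytes as well as in vessels. The last of the 3, Esam, averaged 7.00 and passed narrowly, with a lowest percentile of 75.1. The tight junction gene Cldn5 was at 6.69, 6.29 and 6.68, Flt1, a VEGF receptor, at 6.75, 6.35 and 5.97, Cdh5, the cadherin of vessels, at 5.63, 4.93 and 5.39 and Pecam1 at 5.28, 4.98 and 5.10. Tek and Slco1a4, at 3.94 and 3.86, lay below the receptor level in all arrays. Of 11 genes of pericytes and smooth muscle, 5 lay above the upper quartile and all 11 above the receptor level. Among all genes these shares were 22% and 63.7%. Vtn, the matrix protein vitronectin, was at 10.68, 11.29 and 11.35 and Pdgfrb, a receptor of pericytes, at 9.48, 9.42 and 9.35. Rgs5, another pericyte gene, averaged 7.74, Acta2, smooth muscle actin, 7.35, Des 4.95 and Myh11 4.80. Fibroblast genes had 2 of 8 above the upper quartile, near the 22% of all genes. These were Igf2 at 7.87, 8.69 and 8.83 and Dcn at 7.23, 8.14 and 8.04, while Lum averaged 3.17.

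Ependymal genes, of the ciliated cells that line the ventricles, averaged 6.54, 7.26 and 7.07. In all arrays 4 of 9 lay above the upper quartile and 9 above the receptor level, against 22% and 63.7% of all genes. Mia was at 7.29, 8.37 and 8.33, Tmem212 at 7.23, 8.21 and 8.38, and Tekt1, a cilium gene, averaged 5.56. Choroid plexus genes averaged 4.66, 5.68 and 5.13, with 1 of 10 above the upper quartile in all arrays, against 22% of all genes. That 1 was the potassium channel gene Kcnj13 (7.34). Ttr, transthyretin, was at 4.88 in replicate 1, 9.24 in replicate 2 and 6.02 in replicate 3. Without Ttr the other 9 averaged 4.63, 5.28 and 5.03, and Kl and Kcne2 lay below the receptor level in every array.

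The glycosylation genes of the study lay on both sides of the array median. In all arrays 6 of 11 lay above the upper quartile and 2 below the median, against 22% and 46.2% of all genes. Mgat5b was at 5.72, 5.57 and 5.74, close to the array medians and above the receptor level in all arrays, as were 63.7% of all genes. Its mean of 5.68 lay below those of Ins2 (5.93) and Krt10 (6.12), genes restricted to other tissues, so the receptor level does not show that it was expressed. Mgat5, the related enzyme of N-glycans, was at 8.22, 7.54 and 7.49. Ptprz1, a receptor phosphatase of glia that carries brain glycans, was at 9.69, 9.60 and 9.49, and Dag1, which encodes dystroglycan, at 10.08, 9.59 and 9.75. Of the O-mannosyl enzymes, Pomgnt1 averaged 7.78, Pomt2 7.69 and Pomt1 4.88. St8sia6, at 4.12, 4.45 and 4.20, was the lowest of the 11 measured genes and passed the receptor level in 1 array. Of 16 genes that handling of cells can raise, 2 lay above the upper quartile in all arrays, against 22% of all genes. These were the phosphatase gene Dusp1, at 10.19, 9.14 and 10.62, and Klf6, which averaged 7.30. The receptor level was passed by 15 of the 16 in all arrays, against 63.7% of all genes. Nr4a1 averaged 7.14, and Socs3 (4.36) and Ier2 (4.60) were the lowest. Fos was at 5.78, 5.72 and 5.86 and Atf3 at 5.25, 5.29 and 4.72.

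The arrays differed among themselves by cell type list. Replicate 1 had the highest value for 16 of the 24 astrocyte genes, 16 of the 19 microglial genes and 12 of the 18 neuronal genes, against 31.2% of all genes whose 3 values differed. It had the lowest value for all 9 ependymal genes, all 10 choroid plexus genes and 5 of the 8 fibroblast genes, against 35.5% of all genes. Replicate 2 was the highest for 10 of the 15 mature oligodendrocyte genes with 3 different values, 7 of the 9 ependymal and 7 of the 10 choroid plexus genes, against 31.0% of all genes. Replicate 3 was the lowest for 15 of the 24 astrocyte genes and 10 of the 15 oligodendrocyte genes, against 33.1% of all genes and 38.4% of those above the mean array median. The 95th percentile of all genes was also the lowest in replicate 3, at 8.85 against 8.94 and 8.91. The range of list means over the 3 arrays was 1.02 for choroid plexus, 0.72 for ependymal, 0.63 for fibroblast and 0.52 for microglial genes. Without Ttr the range for choroid plexus was 0.65, below that for ependymal genes. It was 0.31 for astrocyte and for mature oligodendrocyte genes and 0.18 for genes of general expression such as Actb. Genes of a list share cells, so these counts describe 3 arrays and not so many independent observations, and whether the dissection or the RNA kit differed between arrays was not given.

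**Figure D4:**
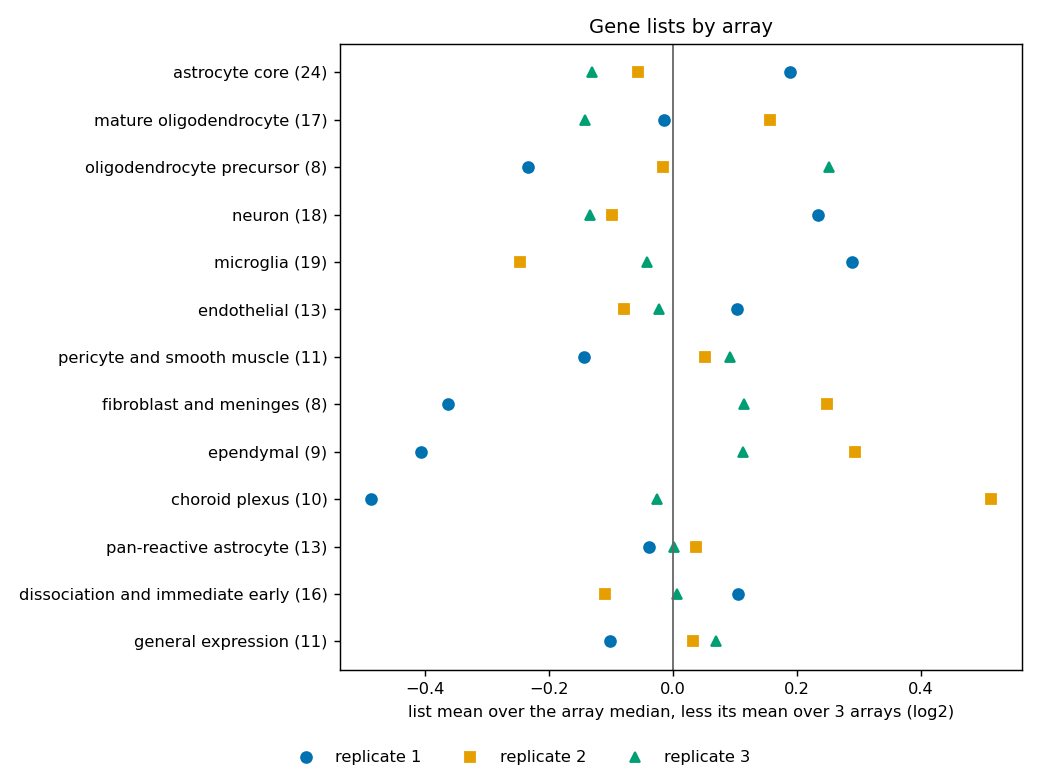
Each row is a gene list with its number of measured genes. Points give the list mean in an array, less that array's median and less the average of the 3 arrays (log2, horizontal axis). Replicate 1 lies left for choroid plexus, ependymal and fibroblast genes and right for astrocyte, neuron and microglial genes, and the choroid plexus points lie the farthest apart, which rests on Ttr.

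Single genes differed between arrays by more than any of these list means did. Of the 9739 genes with a mean above 5.47, 23 had an SD above 1, and the 15 with the largest are described here. The unannotated transcript 2900060B14Rik was at 7.12 in replicate 1 and at 11.12 and 10.99 in the others, followed by Ttr. Replicate 1 was the high array for some of them that are known from dendrites and neurites, named for their SD and not as a list. Camk2a, the kinase subunit whose messenger RNA enters dendrites, was at 10.25 against 7.08 and 7.19, Ddn, a dendrite gene, at 7.61 against 4.44 and 4.47, and Nrsn1, a neurite gene, at 8.41 against 6.16 and 5.83. Fbxl16 was at 8.29 against 6.21 and 6.08 and Mfsd12 at 7.46 against 5.84 and 5.33. Mark4, a microtubule kinase gene, was low in replicate 2, at 6.81, 4.21 and 6.35.

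Replicate 3 was the low array for another group of these genes. Cdkn1a, a gene that halts the cell cycle, was at 9.02, 9.29 and 6.54, Zbtb16, a transcription factor gene that glucocorticoids induce, at 9.61, 9.28 and 7.05, and Sgk1, the serum- and glucocorticoid-induced kinase gene, at 9.36, 9.91 and 7.66. Hif3a, a hypoxia factor gene, was at 9.07, 8.86 and 7.01, Arrdc2, an arrestin-like gene, at 8.69, 8.69 and 6.67, Sh3bp2, an adaptor gene, at 6.94, 6.91 and 4.83, and Trib1, a pseudokinase gene, at 8.22, 7.00 and 5.98. Of the 14 genes of the 15 with 3 different values, replicate 3 was the lowest for 9 and the highest for 0, and replicate 1 was the highest for 10. Among all genes above the mean array median these shares were 38.4%, 34.6% and 35.1%. Just outside the 15, Shank1 was at 9.12, 6.90 and 7.89 with an SD of 1.11, the same as Mfsd12 to that precision.

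**Figure D5:**
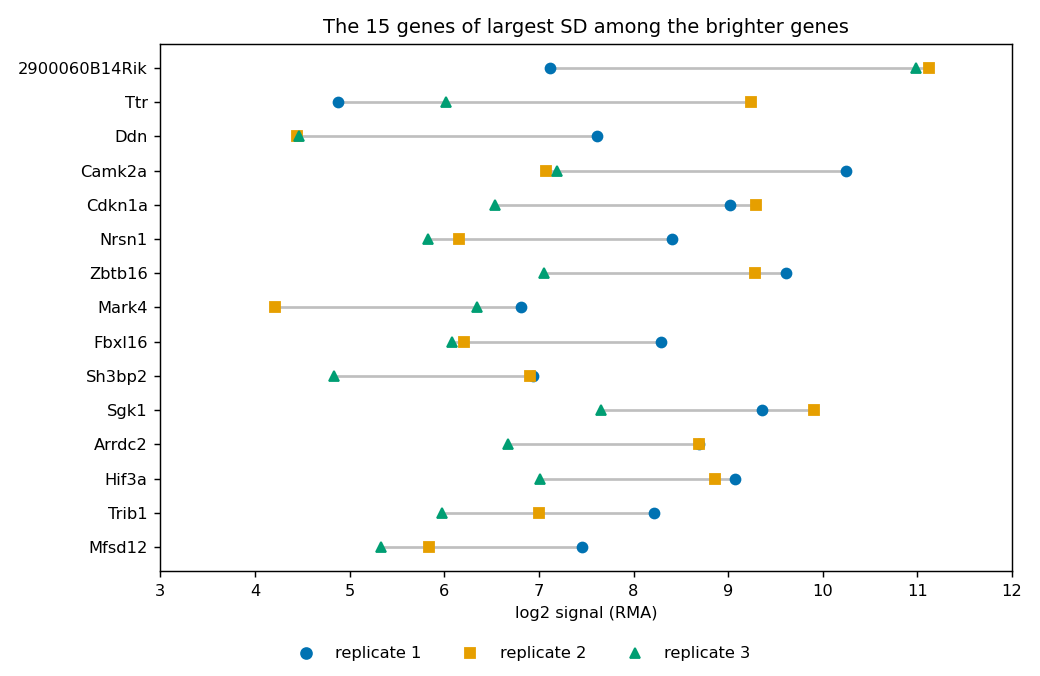
The 15 genes with the largest SD among genes whose mean lies above 5.47 are listed from top to bottom, with the log2 signal of each array on the horizontal axis. Replicate 1 lies alone on the right for Ddn, Camk2a, Nrsn1 and Fbxl16, and replicate 3 alone on the left for Cdkn1a, Zbtb16, Sh3bp2, Sgk1, Arrdc2 and Hif3a.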

How the data were processed

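RNA extraction used 1 of 2 kits, miRNeasy Mini or NucleoSpin RNA XS, and labelling used a GeneChip 3' IVT Pico kit, per the labels' protocols. Which sample went with which kit was not given. The authors deposited log2 values, made with Affymetrix Expression Console 1.4 and RMA, per the submitters' processing notes. RMA gives all arrays a like distribution, which hides differences in total signal. No genome build was named in the sources.

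The table held 22206 transcript clusters, 19572 with 1 symbol matched by Entrez identifier to RefSeq (GRCm38.p6), 0 with several and 2634 unnamed here. Where a gene had more than 1 cluster (55 genes), that with the highest 12-array mean stood for it. Values, SDs over 3 arrays, ranks and percentiles among named genes were computed with pandas 2.3.3 in Python 3.11.15, and the steps were tested on simulated data. No test was run. A gene is in the upper quartile when its percentile is above 75 in every array.

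Of 382 listed genes in 37 lists, 348 were measured, and the others were not analysed here. The red blood cell and peripheral myelin lists had 1 and 2 measured genes, and Alas2 averaged 5.54 and Ncmap 5.27. Named genes were Slc1a3, Mgat5b, the 30 highest by mean, the 15 of largest SD above the median signal, and members of the lists, the 3 highest and 2 lowest included. The group, lists and rule were chosen with earlier results of these data known.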

Additional observations from a re-analysis of the deposited data

How the results depend on the processing

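No paired analysis was possible because 1 group was described and no groups were compared. A second quantile normalization over the 3 arrays, median centring with scaling and the mean of a gene's clusters kept all results below within 1 SD or 1.5 times. Over those settings the mean signals of 379 named genes moved by less than 1 SD, and the largest move was 0.04. These settings could change little, because RMA had already given the arrays like distributions and 55 genes had more than 1 cluster. Counts of list members depended on how a dim signal was defined. Against the 99th percentile of the receptor genes 10 microglial genes lay above the reference, and against the 95th percentile of a list of tissue-restricted genes 8 microglial, 6 neuronal and 7 endothelial genes did. The shares of all genes above these references were not computed. Without the dimmest 30% of genes the microglial, neuronal and endothelial lists averaged 5.93, 6.23 and 6.87, and 0 microglial and 2 neuronal genes lay above the upper quartile. With the median over members in place of the mean, the astrocyte, microglial and neuronal lists were at 9.87, 5.89 and 5.52. When ranks were taken over all clusters, 21 of the 30 highest named genes stayed among the 30 highest, and 9 unnamed clusters held the other places. Without replicate 1, 2 or 3 the number of microglial genes above the upper quartile was 1 to 2. In those settings 48 to 72 genes had an SD above 1, against 41 with all 3, the most without replicate 2. Replicates 1 and 3, which are left then, differed by more than 1 in 409 genes, against 194 for 1 and 2 and 266 for 2 and 3. An SD over 2 arrays is not like one over 3, and why the arrays differed was not tested. Detection was not called, so a low signal does not show that a gene is off.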

Other observations

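The spread of Zbtb16 and Sgk1 led to a look at other genes known as targets of the glucocorticoid receptor, a list chosen after those values were seen and holding 4 of the 15 genes of largest SD, so it gives no independent evidence of its direction. Of its 16 genes, 15 had 3 different values, and replicate 3 was the lowest for all 15, against 33.1% of all genes. Fkbp5, which encodes a chaperone of that receptor, was at 5.51, 6.33 and 4.09. Tsc22d3, the leucine zipper gene GILZ, was at 9.73, 9.79 and 8.73, the clock gene Per1 at 9.07, 8.93 and 7.73 and Nfkbia, an inhibitor of NF-kappaB, at 8.18, 8.31 and 6.88. Klf9 was at 8.72, 8.79 and 8.49, and the metallothionein gene Mt1 at 9.46, 9.48 and 9.36, close between arrays. Errfi1 was at 7.04, 7.31 and 5.36 and Plin4 at 7.79, 7.97 and 6.22. Time of day, handling and kit were not given for these arrays, and their part was not tested.

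A second list chosen after the values were seen held 13 genes with messenger RNAs in dendrites and axons, and replicate 1 was the highest for all 13, against 31.2% of all genes. The list holds genes that prompted it, so the count is no independent evidence. Besides Camk2a, Ddn, Shank1 and Nrsn1 these included the kinesin genes Kif5a (8.18, 6.84 and 6.20) and Kif5c (6.35, 5.34 and 4.58) and Shank3 (6.47, 5.02 and 5.60). The neuronal list, which was not chosen in this way, averaged 5.97 in that array and 5.66 and 5.61 in the others. That direction was not particular to neuronal genes. The astrocyte list averaged 9.81 there against 9.59 and 9.50, and the microglial list 5.91 against 5.39 and 5.59. The ependymal and choroid plexus lists were lowest there. Replicate 2 was the highest for the nicotinic receptor subunit genes Chrna3, at 3.63, 7.57 and 5.02, and Chrnb4, at 3.89, 7.20 and 4.26. These subunits are known from neurons of the medial habenula, a small nucleus beside the third ventricle, and were named after their values were seen. The other 6 genes listed for that nucleus were not highest in that array, with Gng8 at 7.28, 7.45 and 7.62, Tac2 at 3.63, 3.50 and 4.10 and Pou4f1 at 2.18, 2.14 and 2.11. Of the 30 highest signals over all clusters, 9 belonged to clusters that are unnamed here, and 30 unnamed clusters lay above the named gene ranked 100.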
